A study of Mus musculus with 23 samples.

Results

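The genes examined were 10 histone genes outside the replication-coupled clusters, chosen by name: the oocyte linker histone H1foo, the linker histones H1f0 and H1fx, the H2A variants H2afx, H2afz, H2afy, H2afv and H2afj, and the H3.3 genes H3f3a and H3f3b. All 10 were found among the 22619 named genes of the transcript tables. Their level was the FPKM (fragments per kilobase of transcript, scaled to the mapped fragments of the library) summed over the transcripts of each gene. The RNA-seq libraries came from mouse embryos made with germinal vesicle oocytes of adult B6D2F1 (C57BL/6 x DBA/2) females. These oocytes received siRNA by injection, matured in vitro and were then fertilized. Fertilization was by sperm injection in the study's methods and by incubation with sperm in the sample labels. The methods name C57BL/6 males as the source of the sperm. The groups were siEtv5, siMlx and siRfx1, each injected with a mixture of siRNAs against the transcription factor gene in its name, and siCtrl, injected with a control siRNA. The study chose Etv5 as a negative control with little expression in oocytes or zygotes, and reported little change of the transcriptome on its knockdown. Late 2-cell embryos (36 h after fertilization by the labels) and late zygotes (14 h, both times being somewhat later in the study's methods) had 3 libraries in each group, except that siEtv5 had 2 at the 2-cell stage (23 libraries in all). Every group carried an injection and the in vitro culture, no genetic change was present, and the study's methods state that RNA-seq was repeated for each group but not whether each library came from its own collection of embryos, and what the p-values weigh is then the scatter of these libraries, which may be technical.

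Linker histones of the H1 family bind the DNA between nucleosomes. The oocyte and the early embryo carry H1foo as their own linker histone, supplied by the mother, and somatic H1 proteins take over later. Histone variants replace the ordinary H2A or H3 at chosen places or times: H2A.Z (H2afz and H2afv) marks promoters, H2A.X (H2afx) is phosphorylated beside DNA breaks, macroH2A1 (H2afy) is linked to silent chromatin such as the inactive X, H2A.J (H2afj) is a variant close to ordinary H2A, and H3.3 (H3f3a and H3f3b, which code for the same protein) is deposited outside DNA replication and enters the paternal genome soon after fertilization. Such genes make polyadenylated transcripts, which the oligo-dT primed libraries capture. H2afx also makes a form without a poly(A) tail, which such libraries are not designed to capture.

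Depth and identity of the libraries set the frame for every value. Aligned sequence per library was 556 to 991 Mb in siEtv5, 484 to 708 Mb in siMlx and 595 to 949 Mb in siRfx1 zygotes, against 580.2 to 756 Mb in siCtrl zygotes. In 2-cell embryos it was 792 to 811 Mb with siEtv5, 404 to 741 Mb with siMlx and 119 to 174 Mb with siRfx1, against 727 to 967 Mb with siCtrl. The siRfx1 2-cell libraries also listed fewer genes at 1 FPKM or more, 7378 to 8071 against 10567 to 10729 in siCtrl 2-cell libraries. Etv5 was 5.55 to 8.98 FPKM in siEtv5 2-cell embryos against 43.7 to 49.3 FPKM in siCtrl. In zygotes Etv5 was low, with rescaled means of 1.41 FPKM in siCtrl and 0.0260 FPKM in siEtv5, each in its own stage comparison. Rfx1 was 1.43 to 1.53 FPKM in siRfx1 2-cell embryos against 8.12 to 10.7 FPKM in siCtrl, and Mlx was 0 to 0.469 FPKM in siMlx zygotes against 1.84 to 4.25 FPKM in siCtrl zygotes, while the siMlx and siCtrl 2-cell libraries overlapped for Mlx (0.836 to 4.05 against 2.42 to 4.42 FPKM). Summed over 8 oocyte markers, levels ran from 115 to 732 FPKM in 2-cell libraries and from 1239 to 3953 FPKM in zygotes, and 7 markers of the 2-cell stage summed to 123 to 1831 FPKM in 2-cell libraries and to 20.7 to 81.1 FPKM in zygotes. The 10 cumulus cell markers summed to at most 16.1 FPKM with 2 of them at 0 in every library, and the 7 sperm markers to at most 35.1 FPKM with 3 at 0 in every library.

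The 10 genes lie at separate loci, and none overlaps another annotated gene. On mm9, the build of the files, H1foo is at chr6:115894957-115900251 (plus strand, 5 exons), H1f0 at chr15:78858642-78860930 (plus, 1 exon), H1fx at chr6:87930415-87931476 (minus, 1 exon), H2afx at chr9:44142798-44144156 (plus, 1 exon), H2afz at chr3:137527563-137529886 (plus, 5 exons), H2afv at chr11:6327229-6344446 (minus, 5 exons), H2afj at chr6:136756769-136758595 (plus, 1 exon), H2afy at chr13:56174983-56236911 (minus, 4 transcripts), H3f3a at chr1:182732699-182743734 (minus, 4 exons) and H3f3b at chr11:115883275-115885818 (minus, 4 exons). Copies at 90% identity or more over at least 50% of the transcript were found elsewhere in the mm9 sequence for 3 of them. H3f3a had 39 such copies on 14 chromosomes, H2afz had 3 and H3f3b had 1, so reads of these genes could be split between loci, and their levels are less certain than those of the other 7. Coverage was uneven along the spliced genes. The last exon, 56.1% of the H2afz transcript, held 88.0 to 100% of its aligned bases in 2-cell libraries and 100% in all 12 zygote libraries. For H2afv (73.8% of the length) the last exon held 95.5 to 100% in 2-cell libraries and 75.7 to 100% in zygotes, and for H3f3a (59.3%) 90.2 to 100% and 90.5 to 100%. For H3f3b (79.0%) the share differed between groups, at 84.5 to 98.1% in siRfx1 2-cell libraries. It was 70.0 to 75.5% in siCtrl 2-cell and 65.4 to 78.7% in siRfx1 zygote libraries.

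Promoters are shown for the 4 genes with the largest 2-cell to zygote difference in siCtrl embryos, H1foo on the falling side and H2afz, H2afj and H2afv on the rising side. The sequences are RefSeq's for GRCm38.p6, 5′ to 3′ on the strand of the gene, from 250 bases before to 50 bases after the start site, with capitals for matches on either strand to CACGTG (an E-box, the element MLX complexes bind), GTTGCC (an RFX half-site) or CCAAT (the box bound by NF-Y), none of which overlap. H1foo (RefSeq H1f8) is shown from chr6:115944681-115944980 (plus), H2afz (H2az1) from chr3:137864237-137864536 (plus), H2afj (H2aj) from chr6:136807998-136808297 (plus) and H2afv (H2az2) from chr11:6444394-6444693 (minus).
H1foo promoter: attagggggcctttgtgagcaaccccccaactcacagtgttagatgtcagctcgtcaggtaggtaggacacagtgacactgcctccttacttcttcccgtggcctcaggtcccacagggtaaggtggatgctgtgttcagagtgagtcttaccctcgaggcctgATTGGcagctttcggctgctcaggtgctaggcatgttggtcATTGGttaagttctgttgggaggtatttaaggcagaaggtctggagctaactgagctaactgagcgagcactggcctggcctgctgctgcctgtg
H2afz promoter: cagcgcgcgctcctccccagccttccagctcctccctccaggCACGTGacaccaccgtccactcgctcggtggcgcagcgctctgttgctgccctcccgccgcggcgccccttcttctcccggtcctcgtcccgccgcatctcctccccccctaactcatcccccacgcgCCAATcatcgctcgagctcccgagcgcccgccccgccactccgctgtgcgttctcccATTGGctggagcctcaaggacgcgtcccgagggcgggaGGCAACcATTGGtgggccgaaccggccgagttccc
H2afj promoter: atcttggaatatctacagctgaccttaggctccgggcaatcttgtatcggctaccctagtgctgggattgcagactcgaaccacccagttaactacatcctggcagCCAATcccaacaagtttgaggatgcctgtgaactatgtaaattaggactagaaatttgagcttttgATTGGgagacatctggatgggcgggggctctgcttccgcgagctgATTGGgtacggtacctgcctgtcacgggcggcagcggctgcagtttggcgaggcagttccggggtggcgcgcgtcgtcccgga
H2afv promoter: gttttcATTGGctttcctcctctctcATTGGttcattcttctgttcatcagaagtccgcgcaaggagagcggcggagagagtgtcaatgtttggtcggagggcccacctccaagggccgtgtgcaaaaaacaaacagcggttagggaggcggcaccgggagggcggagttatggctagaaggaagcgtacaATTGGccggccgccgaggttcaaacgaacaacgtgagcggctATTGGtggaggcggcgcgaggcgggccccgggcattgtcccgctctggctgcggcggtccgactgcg
A promoter was matched for 9 of the 10 genes, all but H2afx. CCAAT was in 6 of these 9 (H1foo, H2afz, H2afv, H2afj, H3f3a and H3f3b), against 37.9% of 27025 promoters of the same length. H2afz was the 1 gene of the 9 with the E-box letters (7.24% of all promoters) and also the 1 with GTTGCC (12.7%), and none held the ETS letters CCGGAAGT (4.0%). H3f3b held TATAAA (14.2% of all promoters) 27 bases before the start site and the octamer ATTTGCAT (1.75%). The H1foo promoter had 5 CpG dinucleotides at 54.7% GC, against 34 at 71.3% in H2afz, 17 at 55.3% in H2afj and 27 at 60.7% in H2afv.

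**Figure D1:**
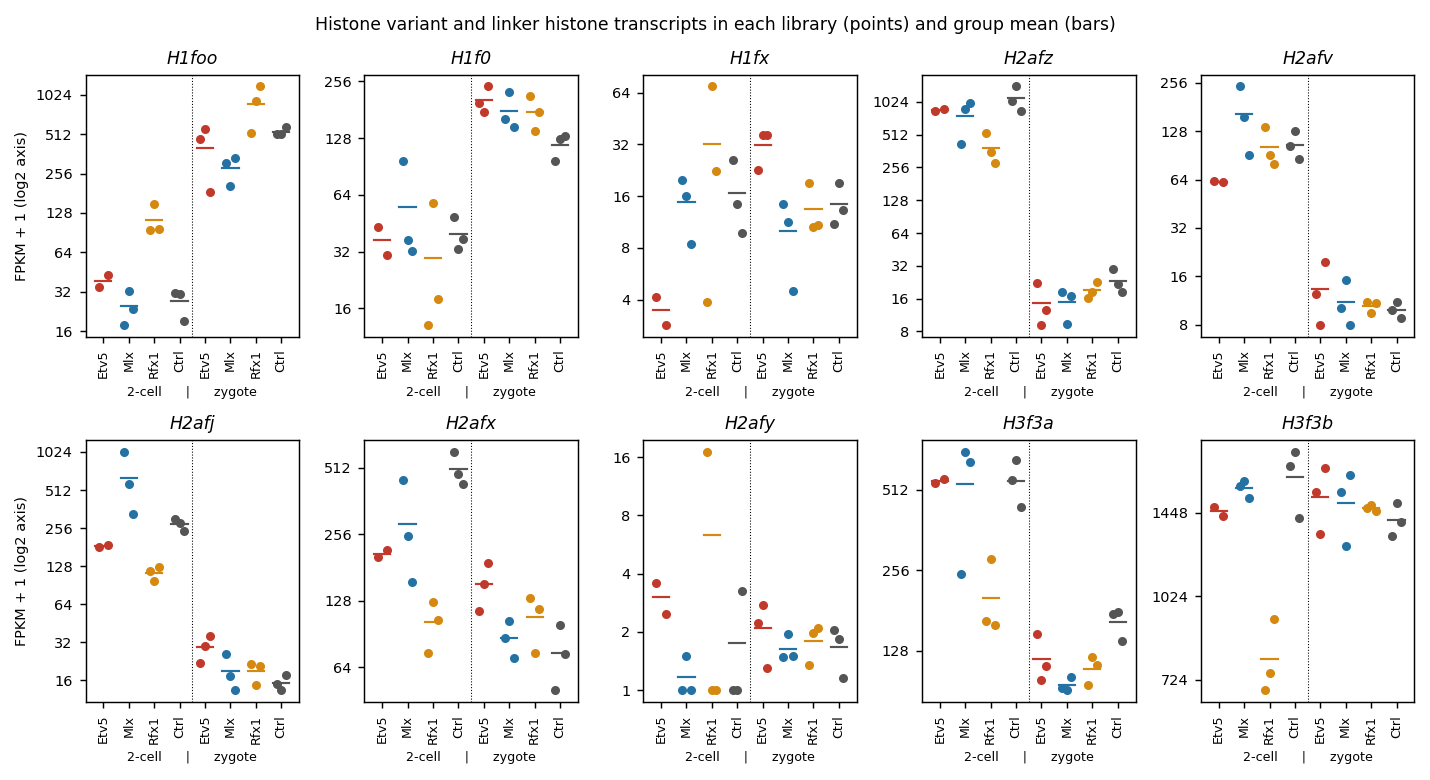
FPKM + 1 on a log2 axis for each of the 10 genes, with 2-cell groups left of the dotted line and zygote groups right of it. Points are libraries and bars are group means. H1foo sits lower in every 2-cell library than in any zygote library, and H2afz, H2afv and H2afj sit higher. H1f0 also sits lower in 2-cell than in zygote libraries, apart from siMlx 2-cell replicate 1, at 95.9 FPKM against 95.6 FPKM in siCtrl zygote replicate 1.

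The first comparison asked how the transcripts of each gene differed between the late 2-cell embryo and the late zygote in siCtrl embryos. Of the linker histones among the members, H1foo and H1f0 fell, and 5 genes for H2A and H3 variants rose. H1foo was 30.6, 29.7 and 18.1 FPKM in siCtrl 2-cell embryos, against 511, 509 and 579 FPKM in siCtrl zygotes, which is 20.4-fold lower by the means. The groups lay far apart, and the oocyte linker histone went to rank 2998 of the named genes by mean FPKM in 2-cell embryos, against rank 81 in zygotes. H1f0, a linker histone of non-dividing and differentiated cells, was 47.8, 32.2 and 36.2 FPKM in 2-cell embryos, against 95.6, 125 and 131 FPKM in zygotes. Its libraries did not overlap either. The log2 fold changes (2-cell minus zygote, on rescaled log2(FPKM + 1), tested by limma with Benjamini-Hochberg adjustment) were -4.59 for H1foo (SE 0.22, adjusted p = 4.1e-06) and -1.83 for H1f0 (SE 0.21, adjusted p = 1.3e-04). H1fx, a linker histone of broad expression, was 24.9, 13.4 and 8.72 FPKM in 2-cell embryos, against 9.95, 18.1 and 12.2 FPKM in zygotes, and these groups overlapped (log2 -0.11, 95% confidence interval -1.02 to 0.81, adjusted p = 0.82).

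The H2A variants rose, H2afz most. This gene for the main H2A.Z protein was 1046, 1414 and 844 FPKM in siCtrl 2-cell embryos, against 29.0, 20.7 and 17.6 FPKM in siCtrl zygotes, 49.1-fold higher by the means. It ranked 23 of all named genes in 2-cell embryos and 2419 in zygotes. H2afv, the second H2A.Z gene, was 103, 127 and 85.3 FPKM in 2-cell embryos, against 8.93, 10.1 and 7.74 FPKM in zygotes. H2afj was 302, 279 and 242 FPKM in 2-cell embryos, against 13.9, 12.4 and 16.7 FPKM in zygotes. In none of the 3 did a 2-cell library overlap with a zygote library. H2afx was 603, 479 and 432 FPKM in 2-cell embryos, against 49.5, 98.0 and 72.8 FPKM in zygotes, again without overlap. The log2 fold changes were 5.30 for H2afz (SE 0.25, adjusted p = 3.9e-06), 3.92 for H2afj (SE 0.18, adjusted p = 3.7e-06), 3.16 for H2afv (SE 0.22, adjusted p = 1.1e-05) and 2.55 for H2afx (SE 0.27, adjusted p = 7.6e-05). H2afy was listed at 0, 0 and 2.24 FPKM in 2-cell embryos, against 1.04, 0.841 and 0.151 FPKM in zygotes, and stayed under the mean of 1 FPKM that a test required.

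The pair of H3.3 genes split. H3f3a was 557, 659 and 442 FPKM in siCtrl 2-cell embryos, against 174, 178 and 138 FPKM in siCtrl zygotes, with no overlap (log2 1.49, SE 0.19, adjusted p = 2.3e-04). H3f3b, the more abundant gene throughout, was 1757, 1863 and 1414 FPKM in 2-cell embryos, against 1312, 1504 and 1394 FPKM in zygotes, and these groups overlapped (log2 -0.01, 95% confidence interval -0.33 to 0.32, adjusted p = 0.97). Removal of the trend on transcript length took H3f3b to -0.45 (adjusted p = 0.013), and to -0.79 (adjusted p = 0.036) in siEtv5 embryos. Over the 9 tested genes, 7 passed an adjusted p of 0.05 and a fold above 2, against 63.8% called among all 11123 genes tested, and 7 passed on the adjusted p alone, against 71.7% (5 higher against 40.6% and 2 lower against 31.1%), so the share that changed was near that of genes at large. The median log2 fold change was 1.49 over the 9 genes and 0.27 over all tested genes (0.52 with the FPKM as deposited). FPKM is a share of each library, so more transcripts of a gene and less RNA of other genes cannot be told apart.

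The same stage comparison within each knockdown gave the same directions for most members. In siEtv5 embryos 7 of 10 tested genes passed (63.3% of all genes), in siMlx embryos 6 of 9 (67.5%) and in siRfx1 embryos 6 of 10 (48.7%). H1foo was 33.5 and 42.3 FPKM in siEtv5 2-cell embryos against 466, 555 and 185 FPKM in siEtv5 zygotes, 16.9, 31.6 and 22.7 FPKM in siMlx 2-cell embryos against 309, 205 and 332 FPKM in siMlx zygotes, and 93.5, 148 and 95.3 FPKM in siRfx1 2-cell embryos against 523, 911 and 1182 FPKM in siRfx1 zygotes. All 3 pairs were apart, with log2 fold changes of -3.50, -3.91 and -3.14 (adjusted p = 0.0011, 2.7e-05 and 7.3e-04 by limma). Without siEtv5 2-cell replicate 1 the siEtv5 value was -3.25 with an adjusted p of 0.051. H1f0 also fell in all 3 knockdowns, by 2.74 on the log2 scale with siEtv5, by 2.23 with siMlx and by 3.10 with siRfx1 (adjusted p = 6.6e-04, 0.0064 and 0.0061). H2afz rose by 5.71, 5.27 and 4.06 on the log2 scale with siEtv5, siMlx and siRfx1 (adjusted p = 1.1e-04, 1.3e-05 and 4.4e-04). H2afj rose by 2.42, 4.61 and 2.36 (adjusted p = 0.0016, 1.3e-04 and 0.0021), and H2afv by 2.05, 3.46 and 3.04 (adjusted p = 0.0077, 4.2e-04 and 0.0011). For H2afv with siEtv5 the adjusted p was 0.096 to 0.099 when either 2-cell library was left out.

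Of the genes that rose in siCtrl embryos, H2afx was the one that passed in no knockdown in the main test, and its siMlx result depended on the processing. H2afx was 201 and 216 FPKM in siEtv5 2-cell embryos against 114, 151 and 188 FPKM in siEtv5 zygotes, 451, 250 and 154 FPKM in siMlx 2-cell embryos against 85.9, 102 and 69.3 FPKM in siMlx zygotes, and 73.5, 126 and 104 FPKM in siRfx1 2-cell embryos against 130, 73.0 and 117 FPKM in siRfx1 zygotes. The libraries were apart with siEtv5 and siMlx and overlapped with siRfx1. The log2 fold changes were 0.22 (95% confidence interval -0.64 to 1.08, adjusted p = 0.61), 1.22 (0.04 to 2.39, adjusted p = 0.063) and -0.31 (-1.19 to 0.58, adjusted p = 0.52), against 2.55 in siCtrl embryos. The siMlx value was 1.72 with an adjusted p of 0.012 without siMlx 2-cell replicate 3, and it passed with the FPKM as deposited (log2 1.60, adjusted p = 0.0083), with all 8 groups in 1 fit (1.01, adjusted p = 0.036) and with the replicate block (1.22, adjusted p = 0.043). With siEtv5 and siRfx1 it passed in no setting (adjusted p = 0.21 to 0.89). H1fx passed with siEtv5 alone, at 3.15 and 1.85 FPKM in 2-cell embryos against 21.7, 35.5 and 35.1 FPKM in zygotes (log2 -3.40, SE 0.39, adjusted p = 5.6e-04). H3f3b passed with siRfx1, at 693, 743 and 931 FPKM in 2-cell embryos against 1474, 1495 and 1455 FPKM in zygotes (log2 -1.15, SE 0.15, adjusted p = 0.0016). Coverage along H3f3b also differed between these groups, with 84.5 to 98.1% of aligned bases in the last exon in 2-cell embryos and 65.4 to 78.7% in zygotes. The part of this in the lower level was not tested. With siEtv5 and siMlx the H3f3b values were -0.35 and -0.29 (adjusted p = 0.30 and 0.48), and -0.72 and -0.50 with all 8 groups in 1 fit (adjusted p = 0.011 and 0.036). H3f3a rose with siEtv5 (log2 1.95, adjusted p = 0.0013) and siMlx (log2 1.96, adjusted p = 0.0018), and its siRfx1 value was 0.60 (adjusted p = 0.13), which passed with all 8 groups in 1 fit (0.73, adjusted p = 0.028) and with the length trend removed (1.22, adjusted p = 0.013). The median of all genes in the siRfx1 stage comparison was -0.24.

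**Figure D2:**
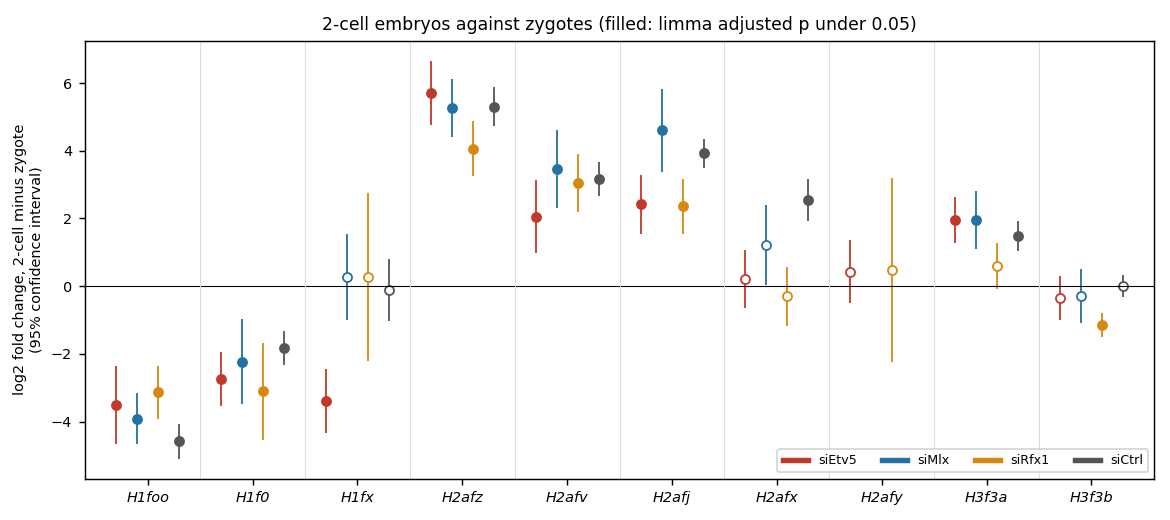
Log2 fold change of 2-cell embryos minus zygotes for each gene with its 95% confidence interval, by siRNA group. Filled points passed a limma adjusted p of 0.05. H2afz lies between 4.06 and 5.71 in the 4 groups and H1foo between -4.59 and -3.14, while H2afx is at 2.55 with siCtrl and at 1.22 or below in the knockdowns.

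Family makeup moved with the stage. H1foo made up 28.7 to 39.5% of the summed FPKM of H1foo, H1f0 and H1fx in siCtrl 2-cell embryos, against 78.1 to 82.9% in siCtrl zygotes, and the sum itself was 63.0 to 103 FPKM against 617 to 722 FPKM. Linker histones of the Hist1 cluster, given below, are not in this sum. In siRfx1 2-cell embryos H1foo kept 54.1 to 86.2% of a sum of 108 to 273 FPKM, above the siCtrl 2-cell range in both. H2afz made up 90.8 to 91.8% of the H2A.Z pair in siCtrl 2-cell embryos, against 67.3 to 76.5% in siCtrl zygotes. Its share was 93.2 to 93.5% in siEtv5, 63.3 to 91.7% in siMlx and 77.7 to 79.6% in siRfx1 2-cell embryos. The 2 siEtv5 values lay above and the 3 siRfx1 values below all siCtrl values. H3f3b made up 73.9 to 76.2% of the H3.3 pair in siCtrl 2-cell embryos, against 88.3 to 91.0% in siCtrl zygotes. The sum of H2afx, H2afz, H2afv and H2afj was 1604 to 2299 FPKM in siCtrl 2-cell embryos, against 101 to 141 FPKM in siCtrl zygotes, and H2afx held 20.8 to 29.4% of it against 48.9 to 69.4%.

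**Figure D3:**
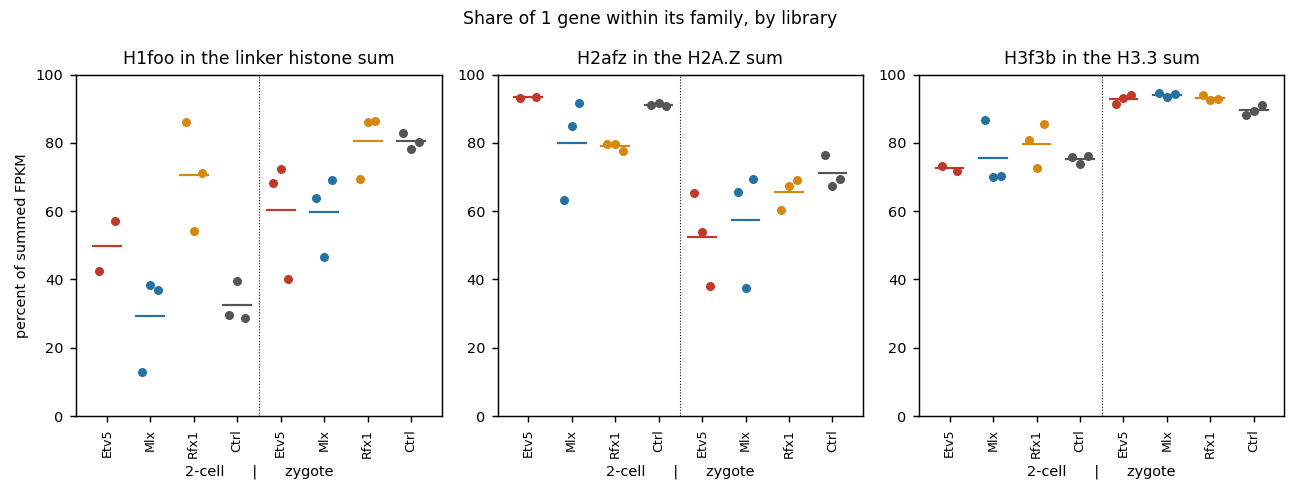
Percent of summed FPKM that 1 gene holds, for H1foo (summed with H1f0 and H1fx), H2afz (with H2afv) and H3f3b (with H3f3a). The 2-cell groups are left of the dotted line and the zygote groups right of it. Points are libraries and bars are means. The 3 siCtrl 2-cell libraries have 28.7 to 39.5% H1foo, against 78.1 to 82.9% in siCtrl zygotes.

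The partners of these histones showed no single direction with the stage. In siCtrl 2-cell embryos against siCtrl zygotes, 3 of 9 tested H3.3 chaperone genes passed on the higher and 3 on the lower side, beside 40.6% higher and 31.1% lower among all genes, which is also the background of the counts that follow. Hira, the subunit that gives the H3.3 chaperone complex its name, rose by 1.92 on the log2 scale, and Asf1a and Asf1b, which hand H3 and H4 to the assembly factors, fell by 2.39 and 1.51. Of 10 tested genes of H2A.Z exchange, 5 rose and 3 fell. Ruvbl1, an ATPase shared by the exchange complexes, rose by 3.43 and Vps72, the subunit that carries H2A.Z, fell by 3.37, at 14.0 to 25.8 FPKM in 2-cell embryos against 130 to 224 FPKM in zygotes. Of 10 tested genes of H2A.X signalling, 3 rose and 4 fell, with the checkpoint kinase Chek2 at 37.8 to 47.0 FPKM in 2-cell embryos against 0 to 0.341 FPKM in zygotes and Chek1 at 8.19 to 15.3 against 108 to 149 FPKM. Among 5 somatic linker histones of the Hist1 cluster, 1 rose and 3 fell. Hist1h1b (H1.5) was 50.4 to 85.6 FPKM in 2-cell embryos against 2.91 to 5.33 FPKM in zygotes, and Hist1h1a (H1.1) was 0.988 to 34.0 against 184 to 249 FPKM. Cluster histone transcripts mostly lack a poly(A) tail, so their levels here hold only the part that was primed. Cenpa, the centromeric H3, rose by 1.87, and the germline variants Hist1h2aa and Hist1h2ba fell by 2.94 and 4.39.

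The knockdown comparisons asked what each siRNA changed against siCtrl of the same stage. In zygotes none of the 9 tested genes passed in any group, against 0.0, 2.61 and 0.0555% of all genes with siEtv5, siMlx and siRfx1. At an unadjusted p under 0.05, 1119, 2202 and 1311 of all tested genes were counted there by limma. With siEtv5, 4 of the 9 had libraries wholly above those of siCtrl, against 5.89% of all genes in that direction and 21.5% in either. These were H1f0 (195, 175 and 239 FPKM against 95.6, 125 and 131 FPKM in siCtrl zygotes), H1fx (21.7, 35.5 and 35.1 against 9.95, 18.1 and 12.2 FPKM), H2afx (114, 151 and 188 against 49.5, 98.0 and 72.8 FPKM) and H2afj (20.8, 29.0 and 34.8 against 13.9, 12.4 and 16.7 FPKM). Their log2 fold changes lay between 0.97 and 1.32, with adjusted p-values of 0.32 to 0.33. These 4 are the members with 1 exon, and the part of gene structure in their values was not tested. Their levels correlated with each other at r = 0.41 to 0.87 over the zygote libraries, so they are not 4 separate results. H1f0 was apart from siCtrl in all 3 knockdowns, at 161, 224 and 146 FPKM in siMlx and 214, 139 and 174 FPKM in siRfx1 zygotes (log2 0.93 and 0.74, adjusted p = 0.084 and 0.26). The 3 comparisons share the siCtrl libraries. With siMlx, H1foo, H2afz and H3f3a lay wholly below siCtrl and H1f0 wholly above it (4 of 9 against 36.0% of all genes), and with siRfx1 H3f3a lay below and H1f0 above (2 of 9 against 23.5%). Across all knockdown zygotes H2afz was 8.19 to 21.9 FPKM against 17.6 to 29.0 FPKM in siCtrl zygotes, H2afv 6.97 to 18.7 against 7.74 to 10.1 FPKM, and H3f3b 1258 to 1739 against 1312 to 1504 FPKM. With the FPKM as deposited, H1foo and H3f3a passed with siMlx (log2 -0.94 and -0.78, adjusted p = 0.036 and 0.039). In that setting 88 of all 8959 tested genes passed on the higher and 954 on the lower side, and the median over all genes was -0.27.

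In siEtv5 2-cell embryos H2afx passed the test, 1 of 10 tested genes against 0.251% of all genes. It was 201 and 216 FPKM in siEtv5, against 603, 479 and 432 FPKM in siCtrl 2-cell embryos, 2.42-fold lower by the means (log2 -1.25, SE 0.17, adjusted p = 0.0495 by limma). The groups did not overlap. The call sits at the threshold: it was lost in 5 of 9 other settings (adjusted p = 0.067 to 0.33) and when any of the 5 libraries was left out (adjusted p = 0.063 to 0.47), with the log2 value between -1.36 and -1.10. H1fx was 3.15 and 1.85 FPKM in siEtv5 2-cell embryos, against 24.9, 13.4 and 8.72 FPKM in siCtrl (log2 -2.15, SE 0.47, adjusted p = 0.12). These values rest on 1.59 to 2.65 kb of aligned sequence per siEtv5 library, against 8.96 to 19.2 kb per siCtrl library. H2afv (61.7 and 60.9 against 103, 127 and 85.3 FPKM) and H2afj (179.5 and 187 against 302, 279 and 242 FPKM) also lay wholly below siCtrl, and H1foo (33.5 and 42.3 against 30.6, 29.7 and 18.1 FPKM) wholly above it. These 3 had adjusted p-values of 0.17 to 0.41. In all, 5 of the 10 had libraries that did not overlap, against 35.4% of all genes. H3f3a and H3f3b overlapped with siCtrl (log2 0.02 and -0.19, 95% confidence intervals -0.38 to 0.43 and -0.50 to 0.13).

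In siMlx 2-cell embryos none of the 9 tested genes passed, against 0.00945% of all genes, and 1982 of all tested genes had an unadjusted p under 0.05. The 3 siMlx libraries spread widely. H2afj was 1026, 569 and 328 FPKM in siMlx, against 302, 279 and 242 FPKM in siCtrl 2-cell embryos, and was the 1 gene of the 9 without overlap, against 25.9% of all genes (log2 1.33, SE 0.52, adjusted p = 0.23). Without siMlx 2-cell replicate 3 its value was 1.85 with an adjusted p of 0.049. Replicate 1 of siMlx stood apart in several genes, with H2afz at 419 FPKM against 874 and 989 FPKM in the other replicates, H3f3a at 247 against 709 and 652 FPKM, and H2afv at 243 against 156 and 90.04 FPKM. H2afx was 451, 250 and 154 FPKM, partly below the siCtrl values (log2 -0.69, 95% confidence interval -1.84 to 0.47).

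In siRfx1 2-cell embryos H1foo was higher and H2afx lower than in siCtrl, 2 of 10 tested genes against 3.6% of all genes. H1foo was 93.5, 148 and 95.3 FPKM in siRfx1, against 30.6, 29.7 and 18.1 FPKM in siCtrl 2-cell embryos, 4.30-fold higher by the means as deposited. The rescaled fit gave 6.76-fold for H1foo (log2 2.76, SE 0.39, adjusted p = 0.016). H2afx was 73.5, 126 and 104 FPKM in siRfx1, against 603, 479 and 432 FPKM in siCtrl, 4.99-fold lower by the means as deposited. After rescaling the fit gave 3.08-fold lower for H2afx (log2 -1.62, SE 0.28, adjusted p = 0.033). Neither gene overlapped between the groups. Without any 1 of the siCtrl 2-cell replicates 1, 2 and 3 the adjusted p was 0.11 to 0.12 for H1foo (log2 2.504 to 2.87) and 0.13 to 0.15 for H2afx (log2 -1.74 to -1.49). H2afx also lost the call with no filter on low genes, with a replicate block, with voom and with the length trend removed (adjusted p = 0.061 to 0.13), the last of which left it at -0.90. Beside the H1foo values, the 8 oocyte markers summed to 570 to 732 FPKM in siRfx1 2-cell embryos, against 346 to 402 FPKM in siCtrl. The same sum was 544 to 558 FPKM in siEtv5 and 115 to 267 FPKM in siMlx 2-cell embryos. With siRfx1, 2 of the 7 tested markers passed on the higher side, against 221 of all 10284 genes. The part of this list in the H1foo value was not tested. The H1foo values rest on 13.0 to 19.6 kb of aligned sequence per siRfx1 library and 19.5 to 25.9 kb per siCtrl library. H2afz, H2afj, H3f3a and H3f3b lay wholly below siCtrl in FPKM as deposited, which with H1foo and H2afx made 6 of 10 genes, against 39.1% of all genes (1 above siCtrl against 4.87%, and 5 below it against 34.2%). H3f3b was 693, 743 and 931 FPKM in siRfx1, against 1757, 1863 and 1414 FPKM in siCtrl, and H2afz was 529, 352 and 278 FPKM against 1046, 1414 and 844 FPKM. Their rescaled log2 fold changes were -0.38 and -0.82 (adjusted p = 0.25 and 0.15), beside a median of -0.25 over all genes, and the call on these 4 depended on the scaling. With the FPKM as deposited, where that median was -0.85, all 4 passed (log2 -1.09 to -1.53, adjusted p = 0.022 to 0.029). Among all 10497 genes tested as deposited, 149 passed on the higher and 1195 on the lower side. With all 8 groups in 1 fit H2afz, H3f3a and H3f3b passed (adjusted p = 0.013 to 0.036). With the length trend removed the 4 values were 0.01 to 0.16 (adjusted p = 0.66 to 0.98). For H3f3b the last exon held 84.5 to 98.1% of aligned bases in siRfx1 and 70.0 to 75.5% in siCtrl 2-cell libraries. H1f0 was 12.1, 56.7 and 16.9 FPKM and H1fx 2.86, 68.7 and 21.5 FPKM in siRfx1, both spread across the siCtrl range. H2afy was 16.0, 0 and 0 FPKM, so its group mean is replicate 1 alone.

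**Figure D4:**
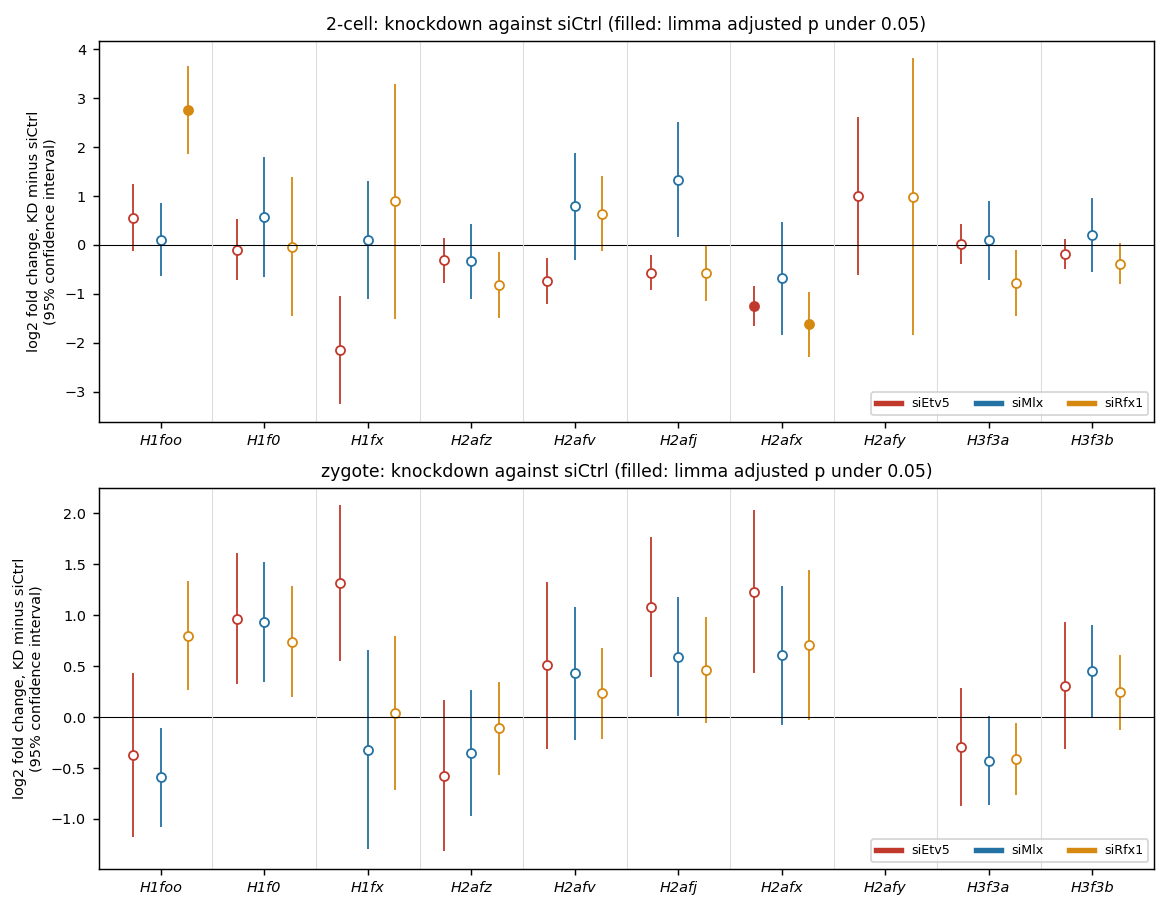
Log2 fold change of each knockdown minus siCtrl with its 95% confidence interval, in 2-cell embryos (top) and zygotes (bottom). Filled points passed a limma adjusted p of 0.05. H2afx with siEtv5 (-1.25) and siRfx1 (-1.62) and H1foo with siRfx1 (2.76) are filled, and no zygote value is.

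Whether an siRNA acted differently at the 2 stages was tested as an interaction, the knockdown effect in 2-cell embryos minus that in zygotes. For H2afx the difference was -2.59 with siRfx1 (SE 0.47, adjusted p = 0.0076), from -1.62 in 2-cell embryos and 0.71 in zygotes, each in its own comparison. It passed without any single library, and removal of the length trend gave -1.68 (adjusted p = 0.063). With siEtv5 the H2afx difference was -2.51 (SE 0.45, adjusted p = 0.044), from -1.25 and 1.23, and with siMlx it was -1.34 (95% confidence interval -2.65 to -0.02, adjusted p = 0.30). The siEtv5 value had an adjusted p of 0.0501 to 0.13 without siCtrl zygote replicate 1 or 3, siEtv5 zygote replicate 3, any siCtrl 2-cell replicate (1, 2 or 3) or either siEtv5 2-cell replicate (1 or 2), and one of 0.063 to 0.16 with all 8 groups in 1 fit, the replicate block or the length trend removed. All these comparisons share the siCtrl libraries. Over all members, 2 of 10 passed with siEtv5 against 0.315% of all genes, 0 of 9 with siMlx against 1.17% (1742 of all tested genes at an unadjusted p under 0.05), and 3 of 10 with siRfx1 against 9.98%.

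The other members that passed were H1fx with siEtv5 and H1foo and H3f3b with siRfx1. The H1fx difference was -3.46 (SE 0.59, adjusted p = 0.039), with the 2-cell libraries below siCtrl and the zygote libraries above it. It had an adjusted p of 0.053 to 0.12 without siCtrl zygote replicate 1 or 3, siEtv5 zygote replicate 3, siCtrl 2-cell replicate 2 or either siEtv5 2-cell replicate (1 or 2), and one of 0.051 to 0.36 with all 8 groups in 1 fit, the replicate block, voom or the length trend removed. The H1foo difference was 1.70 (SE 0.42, adjusted p = 0.029), with H1foo at 523, 911 and 1182 FPKM in siRfx1 zygotes against 511, 509 and 579 FPKM in siCtrl zygotes (log2 0.80, adjusted p = 0.24). It had an adjusted p of 0.057 to 0.072 without siCtrl zygote replicate 1, 2 or 3, siRfx1 zygote replicate 1 or 2, or siCtrl 2-cell replicate 3, one of 0.053 with the FPKM as deposited and one of 0.094 with voom. For H3f3b the siRfx1 2-cell libraries also differed from the rest in coverage along the transcript, as given above, and the part of this in the interaction was not tested. The H3f3b difference was -0.88 (SE 0.21, adjusted p = 0.027), beside a median of -0.40 over all genes. It was -0.15 (adjusted p = 0.75) with the length trend removed, and had an adjusted p of 0.055 to 0.068 with the replicate block or no filter and of 0.051 to 0.071 without siCtrl zygote replicate 1 or 3, siRfx1 zygote replicate 1, 2 or 3, or siCtrl 2-cell replicate 1 or 2.

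Among the partner genes in siRfx1 2-cell embryos, 4 passed against siCtrl, all higher, beside 3.6% of all genes that passed in that comparison (221 higher and 149 lower of 10284). Atrx, the remodeller that places H3.3 at repeats, was 197 to 277 FPKM in siRfx1 against 42.6 to 50.1 FPKM in siCtrl (log2 2.96, adjusted p = 0.0070 by limma). Ubn1, a subunit of the HIRA complex, was 157 to 221 FPKM against 90.3 to 102 FPKM (log2 1.66, adjusted p = 0.026), so 2 of 9 H3.3 chaperone genes passed. Yeats4, a reader subunit of the H2A.Z loading complexes, was 193 to 386 FPKM against 89.7 to 121 FPKM (1 of 9 tested genes, log2 1.97, adjusted p = 0.030). Baz1b, part of the kinase that phosphorylates a tyrosine of H2A.X, was 60.5 to 187 FPKM against 35.7 to 42.3 FPKM (1 of 9 tested genes, log2 2.17, adjusted p = 0.047). Unlike the members, the partner genes were not examined under the other settings or with a library left out. How far these 4 calls depend on either was not tested. None of the 4 tested somatic linker histones and none of the 3 other histone variants passed there. The medians were 0.12 for the chaperones, -0.37 for H2A.Z exchange and 0.81 for H2A.X signalling, beside -0.25 over all genes. In siEtv5 and siMlx 2-cell embryos no gene of these 5 lists passed.

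The genes whose levels followed each member most closely were ranked by Pearson's r of log2(FPKM + 1) over the 23 libraries among 6961 genes, as a description only, since the libraries share the 2 stages and the same siRNA groups. H2afz was followed by Pttg1ip (r = 1.00), Nhp2 (0.99) and Nop16 (0.99), and H2afv by Gak, Fkbp4 and Nom1 (0.98 each). The nearest to H2afj were Hist1h2ao, 1700012B15Rik and Hist1h2ap (0.98 each), the first and last of which are H2A genes of the Hist1 cluster. For H1foo they were Fam46c (0.97), Bcl2l10 (0.97) and 2010002M12Rik (0.96), and the r for Fam46c was 0.86 within the 11 2-cell libraries and 0.73 within the 12 zygote libraries. H2afx had lower values, with Dmrtb1 at 0.89, and Dnajc25 and Srsf2 at 0.87. The nearest to H1f0 were Kcnk13, Pnrc1 and Dnajc9 (0.97 each), to H3f3a Hmox2 (0.96), Surf2 and Zfp954 (0.95 each), and to H3f3b Tamm41, Birc5 and Gpr137b-ps (0.92 each). Within the zygote libraries the r of these named pairs ran from 0.17 (Surf2 with H3f3a) to 0.91 (Kcnk13 with H1f0). Within the 2-cell libraries it ran from 0.71 (Nhp2 with H2afz) to 0.96 (1700012B15Rik with H2afj).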

How the data were processed

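Amplified cDNA of 23 embryo libraries was sequenced without strand marking. The submitters' processing notes name STAR 2.5.2b, StringTie 1.3.4 and mm9, and the file headers name StringTie 1.3.3b. The deposited transcript tables, 1 per library, give FPKM and coverage estimated by the authors for 29306 annotated transcripts. FPKM was summed per gene, and 976 transcripts without a gene name (0.61 to 1.48% of summed FPKM) were left out. Aligned bases per library came from coverage divided by FPKM, and those per gene from coverage times transcript length, so depth is known only in bases. Samples were grouped by the stage and siRNA in their labels.

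FPKM was rescaled by median ratios over the genes that reached 1 FPKM in each library compared, put on the scale log2(FPKM + 1), which understates changes of low genes, and tested with limma 3.58.1 (R 4.3.3, trend, two-sided) on genes averaging 1 FPKM or more across the libraries of the groups compared, with Benjamini-Hochberg adjustment. A gene passed at an adjusted p under 0.05 and was called if its fold also exceeded 2. Interactions used the 4 groups concerned. Exact permutation of 3 against 3 libraries cannot go below p = 0.1, nor 2 against 3 below 0.2, so its p-values, computed for the members, are not given. Alternatives were a pseudocount of 0.1, no filter, a filter at 5 FPKM, FPKM as deposited, all 8 groups together, a replicate block, voom on fragments estimated at 100 bases each, removal of a length trend, the top transcript only, and each library left out. The script was checked on simulated data with 200 changed genes. Copies were searched in the mm9 sequence, to which 98.9% of 243817 annotated introns matched with GT-AG ends.

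The members and all gene lists were chosen with earlier results of these data known. Named genes were all members, the siRNA targets, for each described list up to 3 genes per comparison with the largest change among those that passed, and for each member at 5 FPKM or more the 3 with the highest r, which for H1fx are not reported here.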

Additional observations from a re-analysis of the deposited data

Results flagged for a closer look

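The difference of the knockdown effect between the 2-cell embryo and the zygote passed an adjusted p of 0.05 (limma interaction) for 5 results among the 10 genes. With siEtv5 these were 2 of 10 genes against 0.315% of all genes, and with siRfx1 3 of 10 against 9.98%. The difference (2-cell minus zygote) was -3.46 for H1fx and -2.51 for H2afx with siEtv5, and 1.70 for H1foo, -2.59 for H2afx and -0.88 for H3f3b with siRfx1. All 5 share the siCtrl libraries. The H2afx difference with siRfx1 was the one of the 5 that passed with every single library left out. Each of the 5 failed to pass in some other setting, H2afx with siRfx1 when the length trend was removed (-1.68, adjusted p = 0.063 by limma).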

How the results depend on the processing

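The stage counts moved little: over all settings 7 to 8 members passed in siCtrl embryos (7), 7 to 8 in siEtv5 (7; 5 to 7 with 1 library left out), 6 to 8 in siMlx (6; 6 to 7) and 6 to 7 in siRfx1 (6). The knockdown counts did not. With siMlx in zygotes, 0 members passed, against 2 with the FPKM as deposited, where 88 of 8959 genes passed higher and 954 lower. With siEtv5 in 2-cell embryos 1 passed, and 0 with a pseudocount of 0.1, no filter, all 8 groups in 1 fit, the replicate block or voom, and 0 with any 1 library left out. With siMlx in 2-cell embryos 0 passed, and 0 to 1 with 1 library left out. With siRfx1 in 2-cell embryos 2 passed, against 6 with the FPKM as deposited, where 149 of 10497 genes passed higher and 1195 lower. There were 5 with all 8 groups in 1 fit and 1 each with no filter, the replicate block, voom or the length trend removed. With 1 library left out 0 to 2 passed. For the stage difference of the siEtv5 effect 2 passed, against 0 with all 8 groups in 1 fit, 0 with the block, 1 with voom, 0 with the length trend removed and 0 to 4 with 1 library left out, and for siRfx1 3 passed, against 1 with the length trend removed, 2 with voom or the block, 4 with the filter at 5 FPKM and 1 to 5 with 1 library left out. With no filter or the FPKM as deposited it stayed at 3, with 1 call lost and H2afj gained. No member reversed its direction past a test. Of the single-gene values, 1027 kept their side of the threshold under other settings, 21 gained and 22 lost it, and with 1 library left out 823 kept, 10 gained and 41 lost it. Apart from constructions that leave fewer samples, the cause was not tested.

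Deviations of same-numbered libraries correlated at -0.20 to 0.36, in no comparison over 0.1 for every pair, so the numbers were not taken as pairs. Beside the counts above, the block gave 7 passing members in place of 6 in the siMlx stage comparison and changed no other count. The siRfx1 2-cell libraries, at 119 to 174 Mb, limit low genes most, with H1fx resting on 0.529 to 8.68 kb. Aligned bases come from amplified cDNA and are not independent molecules.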

Other observations

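H2afy (macroH2A1), too low for a test in most comparisons, was listed at 0 in 6 of the 11 2-cell libraries and in none of the 12 zygote libraries. Its levels ran from 0 to 16.0 FPKM in 2-cell libraries and from 0.151 to 1.74 FPKM in zygotes, and of its 4 annotated transcripts 1 carried all of the estimated level. The first exon had no aligned bases in 12 of 12 zygote libraries for H2afz, 11 of 12 for H2afv and 10 of 12 for H1foo. In 2-cell libraries the first exon was at 0 in 3 of 11 for H2afz, 10 of 11 for H2afv and 11 of 11 for H1foo.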
